A study of Rattus norvegicus with 19 samples.

Results

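Coro1a and its relatives were followed across 4 copy-number genotypes in rat hippocampus. The 7 coronin genes were picked by symbol (Coro1a, Coro1b, Coro1c, Coro2a, Coro2b, Coro6 and Coro7) out of 32623 genes in the files, and all 7 were among the 15440 genes with enough reads to be tested. Coro1a lies inside the deleted or duplicated segment of rat chromosome 1, the counterpart of human 16p11.2, whereas the other 6 lie outside it. The question was therefore how Coro1a followed its own copy number, and whether the relatives moved when it was lost or gained.

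Hippocampi came from male Sprague Dawley rats, an outbred strain. The region from Sult1a1 to Spn had been removed or duplicated in the germ line with CRISPR/Cas9, so that every cell of a carrier bears the change, and the animals were littermates of crosses between Del/+ and Dup/+ parents. The 6 wt libraries carried 2 copies of the interval, the 4 Del/+ libraries 1 copy, the 5 Dup/+ libraries 3 copies, and the 4 Del/Dup libraries (replicates 2 to 5) 2 copies, with a deleted and a duplicated chromosome in place of the normal pair. Age was not given in the labels. For wt replicate 5 the description in the labels read wt and the genotype field Dup/+; the library was counted as wt, and its Coro1a level was 102 CPM. Reads assigned to genes ranged from 16191192 to 38760645 per library.

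Coronins are actin-binding proteins built around a WD-repeat propeller. Coro1a, Coro1b and Coro1c bind actin filaments and the Arp2/3 complex, which starts branched filaments, and with cofilin they take part in the turnover of those branches in lamellipodia, growth cones and dendritic spines. Coro1a is best known from leukocytes, where its loss leads to T cell lymphopenia, and it is also expressed by neurons, in which it has been tied to cAMP signalling and synaptic function.

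Levels are given as CPM, reads of a gene relative to all gene reads of a library after TMM scaling of library sizes, a scale that is not corrected for gene length, so that each gene was compared with itself across libraries. A gene was called when its adjusted p in edgeR's quasi-likelihood test, fitted to all 19 libraries, was under 0.05. Fold changes are log2 ratios with their standard error (SE) and 95% confidence interval. Nothing in the labels says that libraries share an animal, and in bulk tissue fewer cells of a type and less RNA per cell cannot be told apart.

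Coro1a (ENSRNOG00000019430) was lower in Del/+, higher in Dup/+ and near the wt level in Del/Dup. The 6 wt libraries gave 101, 112, 107, 106, 102 and 102 CPM, with a mean of 105 ± 4.30 (SD, n = 6). The 4 Del/+ libraries gave 60.7, 42.8, 50.3 and 51.2 CPM (mean 51.2 ± 7.33, SD, n = 4). The 5 Dup/+ libraries gave 160, 160, 163, 151 and 150 CPM (mean 157 ± 5.98, SD, n = 5). No Del/+ library reached the lowest wt library and no Dup/+ library came down to the highest. The 4 Del/Dup libraries gave 81.9, 108, 99.2 and 102 CPM (mean 97.7 ± 11.1, SD, n = 4), of which replicates 2 and 4 were below every wt library and replicates 3 and 5 within the wt range.

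**Figure D1:**
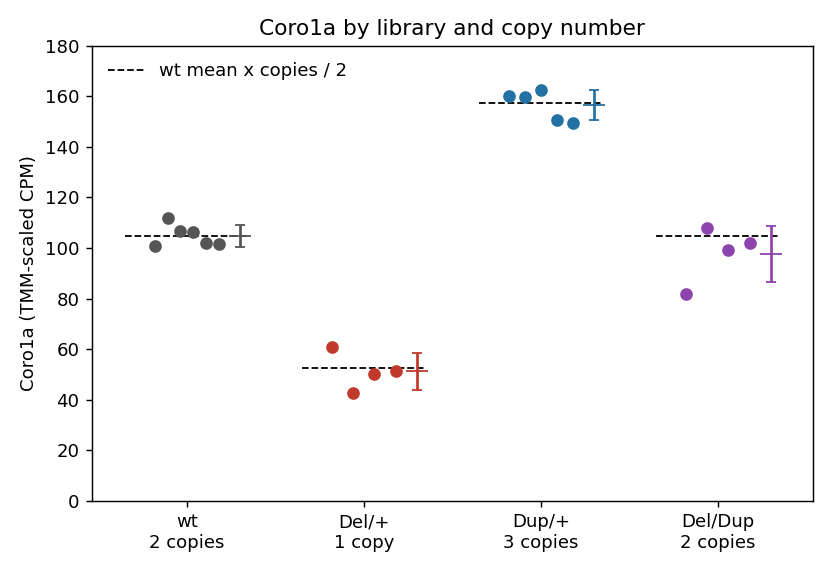
Coro1a level (TMM-scaled CPM, axis from 0) in each library of the 4 genotypes, with points for libraries, horizontal marks and bars for the group mean and SD, and dashed lines for the wt mean multiplied by the number of copies and divided by 2. The Del/+ libraries lie between 42.8 and 60.7 CPM and the Dup/+ libraries between 150 and 163 CPM, on either side of wt, and the mean of each group lies close to its dashed line.

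The fitted change was -1.03 in Del/+ against wt (SE 0.08, interval -1.19 to -0.87, adjusted p = 2.91e-08), or 0.489 of the wt level. The ratio of copies is -1 on the same log2 scale, and lay inside that interval. In Dup/+ the change was 0.58 (SE 0.07, interval 0.43 to 0.72, adjusted p = 9.28e-05), a 1.49-fold rise, against a log2 copy ratio of 0.58. With wt replicate 5 read as Dup/+, as in its genotype field, the Coro1a change was 0.48 and was not called (adjusted p = 0.0914). In that library the 23 other named interval genes tested had a median log2 difference from the wt mean of -0.04. In the Dup/+ libraries that median ran from 0.49 to 0.57, so wt replicate 5 stood at the wt level of the interval. Del/Dup differed from wt by -0.10, with an interval from -0.26 to 0.05 (adjusted p = 0.500), so a fall to 0.836 of wt and a rise to 1.04 of wt were both inside the interval. All genes tested give the background for these calls: 0.771% were called in Del/+ against wt, 0.272% in Dup/+ against wt and 0.0907% in Del/Dup against wt.

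The carriers also differed from each other. Coro1a was 3.06-fold higher in Dup/+ than in Del/+ (log2 1.61, interval 1.44 to 1.78, adjusted p = 2.08e-11), and the log2 ratio of 3 copies to 1 is 1.58. Del/Dup exceeded Del/+ by 0.93 (interval 0.76 to 1.10, adjusted p = 6.82e-07), so that the duplicated chromosome opposite a deleted one came with 1.91 times the Coro1a level of a normal chromosome opposite a deleted one. Dup/+ exceeded Del/Dup by 0.68 (interval 0.52 to 0.84, adjusted p = 5.43e-05). With a term for libraries over 55% multi-mapped the difference was 0.68 and did not pass the test (adjusted p = 0.148). All Del/Dup and no Dup/+ libraries are over that share, and the term is set by Del/+ replicate 4 against the other Del/+ libraries. A line through all 4 genotypes rose by 0.79 log2 units per copy (SE 0.05, adjusted p = 8.00e-10). Of all genes, 0.784%, 0.175%, 0.317% and 0.576% were called in these 4 comparisons, in the order given. Comparisons that use the same group share its libraries.

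Dividing each library's level by its copies put the genotypes side by side. The level per copy was 52.4 ± 2.15 CPM in wt, 51.2 ± 7.33 in Del/+, 52.2 ± 1.99 in Dup/+ and 48.8 ± 5.57 in Del/Dup (SD; n = 6, 4, 5 and 4). Two-sided exact permutation tests against wt, 3 in all, gave p = 0.667 for Del/+, p = 0.844 for Dup/+ and p = 0.176 for Del/Dup (adjusted p = 0.844, 0.844 and 0.529), where the smallest p the exact tests allow is 0.00476 with 4 carriers and 0.00216 with 5. These values do not show that the levels per copy were equal. Without Del/Dup replicate 3, the highest of its group, the Del/Dup level per copy was 5.29 CPM below wt, and its exact permutation p, not adjusted, was 0.0357. In 9 of the 10 runs of this comparison with 1 library left out that p was not under 0.05, and it reached 0.5.

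Del/+ and Del/Dup libraries were more scattered than the others, with a coefficient of variation of 14.3% and 11.4% against 4.10% in wt and 3.82% in Dup/+; the difference in scatter was not tested. The libraries with the lowest Coro1a level in these groups, Del/+ replicate 2 and Del/Dup replicate 2, stood at log2 differences of -1.29 and -0.36 from the wt mean, while the medians of the 23 other named interval genes tested stood at -1.05 and -0.05. In Del/+ replicate 1, the highest of its group, Coro1a stood at -0.79 and the median of those 23 genes at -0.92. Coro1a thus varied around the other interval genes in those libraries, with only 2 of the 23 below it in Del/+ replicate 2 and 4 of the 23 in Del/Dup replicate 2.

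Coro1a lay within the range of the interval genes in every comparison. Among the 24 named interval genes tested, 9 of the other 23 had a lower log2 change than Coro1a in Del/+ against wt, 15 of 23 in Dup/+ against wt and 10 of 23 in Del/Dup against wt. In Dup/+ against Del/+ and in the slope per copy 17 of 23 were lower, and 13 and 15 of 23 in Del/Dup against Del/+ and Dup/+ against Del/Dup. Against wt the medians of those 23 genes were -1.01, 0.51 and -0.06. In the order of the GRCr8 gene table, Coro1a has Bola2, an iron-sulfur trafficking factor, and Slx1b, an endonuclease subunit, on one side and Mapk3, which encodes the kinase ERK1, and Ypel3 on the other. Their log2 changes in Del/+ against wt were -1.02, -1.04, -0.95 and -0.93, and in Dup/+ against wt 0.63, 0.63, 0.57 and 0.47, all called. Across the 19 libraries the 5 genes whose level ran most like that of Coro1a were Kctd13 (Pearson r = 0.99), Aldoa (0.99), Cdipt (0.99), Mapk3 (0.98) and Sez6l2 (0.98), all of the interval. These coefficients are descriptions, since all of these genes share the copy number and the library. After the group means were taken away, the 5 most alike were Wdr83os (r = 0.92), Msx3 (0.90), Aimp2 (0.90), Dok4 (0.86) and Ctnnb1 (0.84) over 19 libraries, and none of the named interval genes was among them.

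The promoter of Coro1a is shown because its copies are what the genotypes change, and those of Coro2a, Coro6 and Coro7 because the levels of Coro6 and Coro7 each ran with or against that of Coro2a within genotypes. The windows hold 300 bases around the transcription start in RefSeq, build GRCr8, in the 5′ to 3′ direction of the gene, with each CG dinucleotide in capitals. Coro1a is at chr1:190731054-190731353 on the minus strand, Coro2a at chr5:65654553-65654852 on the minus strand, Coro6 at chr10:62810951-62811250 on the plus strand and Coro7 at chr10:11391367-11391666 on the plus strand.
Coro1a: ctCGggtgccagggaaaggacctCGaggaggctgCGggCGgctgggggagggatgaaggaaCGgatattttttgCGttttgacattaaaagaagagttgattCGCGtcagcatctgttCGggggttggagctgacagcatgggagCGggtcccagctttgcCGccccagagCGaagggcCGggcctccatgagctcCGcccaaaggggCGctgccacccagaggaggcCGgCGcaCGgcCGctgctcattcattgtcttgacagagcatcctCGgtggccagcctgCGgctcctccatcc
Coro2a: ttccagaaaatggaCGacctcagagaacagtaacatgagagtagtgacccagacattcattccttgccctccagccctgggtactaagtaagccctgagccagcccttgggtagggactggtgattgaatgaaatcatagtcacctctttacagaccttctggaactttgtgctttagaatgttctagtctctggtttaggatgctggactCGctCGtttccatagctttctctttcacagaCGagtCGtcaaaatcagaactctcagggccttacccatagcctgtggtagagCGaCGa
Coro6: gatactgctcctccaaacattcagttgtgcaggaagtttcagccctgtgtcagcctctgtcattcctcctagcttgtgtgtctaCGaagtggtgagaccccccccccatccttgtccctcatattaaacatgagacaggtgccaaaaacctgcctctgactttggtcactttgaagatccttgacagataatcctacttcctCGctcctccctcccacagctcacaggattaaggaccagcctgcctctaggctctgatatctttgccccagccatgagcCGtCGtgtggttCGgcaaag
Coro7: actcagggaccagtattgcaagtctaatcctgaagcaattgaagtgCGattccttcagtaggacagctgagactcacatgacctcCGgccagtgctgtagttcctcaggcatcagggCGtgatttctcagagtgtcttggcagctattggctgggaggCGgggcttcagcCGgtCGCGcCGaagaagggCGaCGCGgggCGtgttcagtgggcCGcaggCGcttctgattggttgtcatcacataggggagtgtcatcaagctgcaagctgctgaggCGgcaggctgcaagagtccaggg
The Coro1a window held 21 CG dinucleotides and the Coro7 window 15, against 7 in Coro2a and 5 in Coro6. The median over 33469 RefSeq rat promoter windows of that length was 7, and 94.5% of them held at least 1. The windows of the other 3 members had 25 CG in Coro1b, 40 in Coro1c, more than in 96.8% of all windows, and 17 in Coro2b. The motif GGGCGG, searched on both strands, was present in the windows of Coro1a, Coro1b and Coro1c and absent from those of Coro2a, Coro2b, Coro6 and Coro7, and 33.1% of all windows held it. TATAAA, searched likewise, was in none of the 7 and in 14.2% of all windows. A match is a run of letters and says nothing about binding in these samples.

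None of the other 6 coronins was called in any of the 7 comparisons by edgeR, nor by DESeq2 wherever it gave an adjusted p, which it did for all but Coro6 in Del/+ against wt. At an unadjusted p under 0.05 there were 3 in Del/+ against wt (Coro1b, Coro2b and Coro6), 3 in Del/Dup against wt (Coro1c, Coro6 and Coro7), 1 in Dup/+ against Del/+ (Coro6), 2 in Dup/+ against Del/Dup (Coro1c and Coro6), 1 in the slope per copy (Coro6), and 0 in Dup/+ against wt and in Del/Dup against Del/+. Over all genes tested the corresponding share was 18.4% in Del/+ against wt, 16.2% in Del/Dup against wt, 13.5% both in Dup/+ against Del/+ and in Dup/+ against Del/Dup, 11.5% in the slope, 8.94% in Dup/+ against wt and 8.48% in Del/Dup against Del/+. The plot of fold changes shows the 7 genes together.

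**Figure D2:**
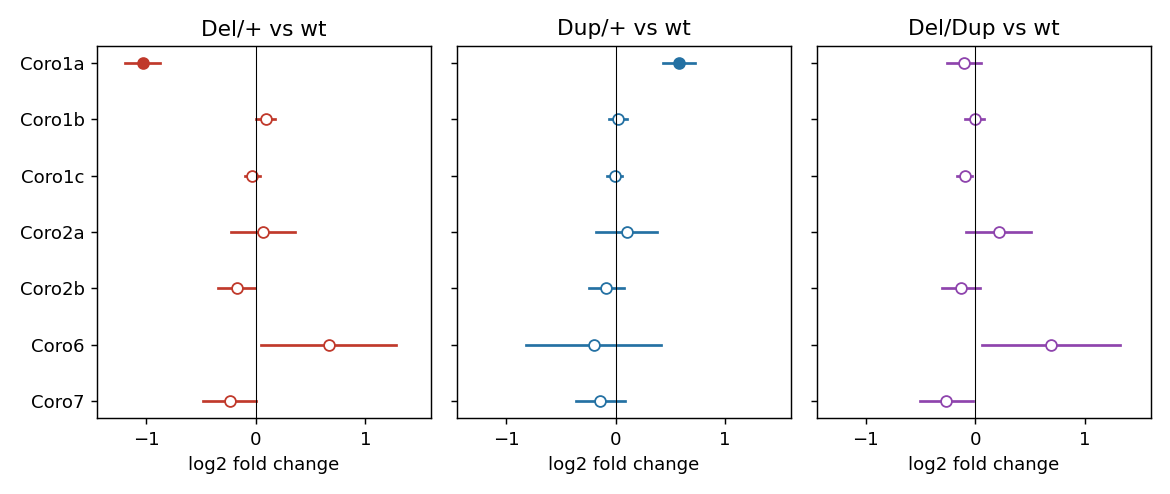
Log2 fold change of the 7 coronins in each carrier genotype against wt, with 95% confidence intervals as lines. Filled points were called and open points were not. Coro1a stands at -1.03 in Del/+ and 0.58 in Dup/+, and the widest intervals are those of Coro6.

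Coro1b and Coro1c were measured most tightly, with the lowest spread within genotypes of all the coronins. Coro1b (ENSRNOG00000021828), which brings phosphatase and Arp2/3 activity together at the leading edge, gave 64.4, 73.2, 71.6, 71.1, 66.5 and 66.2 CPM in wt. In Del/+ it gave 73.8, 73.6, 74.2 and 71.3 CPM, of which replicates 1 to 3 were just above the highest wt library. The log2 difference was 0.09 (interval 0.00 to 0.18, adjusted p = 0.259), so that a rise above 1.13-fold lay outside the interval. In Dup/+ Coro1b ranged from 66.3 to 72.8 CPM (log2 difference 0.03, interval -0.06 to 0.11, adjusted p = 0.895), inside the wt range. In Del/Dup it ranged from 64.2 to 70.8 CPM (log2 difference -0.01, adjusted p = 0.958).

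Coro1c (ENSRNOG00000000697), a broadly expressed coronin of migrating cells and endosomes, gave 85.8, 87.1, 88.9, 87.9, 92.7 and 91.8 CPM in wt. The Del/+ libraries gave 87.0, 89.1, 86.6 and 85.8 CPM (log2 difference -0.03, interval -0.10 to 0.04, adjusted p = 0.665), and overlapped wt. The Dup/+ libraries ranged from 84.2 to 91.9 CPM (log2 difference -0.01, interval -0.08 to 0.06, adjusted p = 0.964). The Del/Dup libraries gave 81.1, 81.7, 84.6 and 85.0 CPM. All 4 were below the lowest wt library, but by a log2 difference of only -0.10 (interval -0.17 to -0.03) that did not pass the test (adjusted p = 0.197).

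Coro2b (ENSRNOG00000015257), a coronin of neurons and focal adhesions, ranged from 49.8 to 67.4 CPM in wt with a median of 61.0. The Del/+ libraries gave 48.8, 56.9, 58.6 and 48.5 CPM, of which replicates 1 and 4 were below every wt library (log2 difference -0.18, interval -0.35 to -0.01, adjusted p = 0.256). Dup/+ ranged from 52.2 to 64.7 CPM (log2 difference -0.08, adjusted p = 0.790) and Del/Dup from 52.5 to 60.2 CPM (log2 difference -0.13, adjusted p = 0.437), and both lay within the wt range. With the term for multi-mapped share the Coro2b difference was -0.31 in Del/+ (adjusted p = 0.339) and -0.31 in Del/Dup (adjusted p = 0.476). Both values rest on Del/+ replicate 4, which sets that term against the other Del/+ libraries.

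Coro2a (ENSRNOG00000008901), which is also found in the NCoR co-repressor complex, was read from 179 to 401 counts per library. The wt libraries ranged from 8.51 to 12.3 CPM, the Del/+ libraries from 9.72 to 13.5 CPM, the Dup/+ libraries from 8.78 to 13.6 CPM and the Del/Dup libraries from 9.37 to 14.7 CPM. The groups overlapped throughout, and the log2 differences from wt were 0.06, 0.10 and 0.21 (adjusted p = 0.847, 0.870 and 0.456). With 1 library left out at a time, the Coro2a difference in Del/+ lay between -0.04 (without Del/+ replicate 2) and 0.12 (without Del/+ replicate 1), that in Dup/+ between 0.04 (without Dup/+ replicate 3) and 0.18 (without Dup/+ replicate 4), and that in Del/Dup between 0.12 (without its replicate 2) and 0.32 (without its replicate 3).

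Coro7 (ENSRNOG00000004146), the tandem coronin of the Golgi apparatus, gave 88.8, 94.7, 81.4, 74.7, 78.5 and 79.6 CPM in wt. In Del/+ it gave 69.8, 61.6, 69.7 and 80.1 CPM, so that 3 of the 4 libraries were below every wt library (log2 difference -0.24, interval -0.48 to 0.00, adjusted p = 0.280). In Dup/+ it gave 81.2, 71.5, 67.8, 89.4 and 66.7 CPM (log2 difference -0.14, interval -0.37 to 0.09, adjusted p = 0.743). In Del/Dup it gave 49.3, 87.5, 69.5 and 70.4 CPM (log2 difference -0.26, interval -0.51 to -0.02, adjusted p = 0.275), the widest spread of the 4 groups. The Coro7 difference in Del/Dup was -0.13 when replicate 2 of that group was left out and -0.39 when its replicate 3 was. With a term for libraries rich in multi-mapped reads the Coro7 difference was -0.05 in Del/+ and -0.01 in Del/Dup. That term is set by Del/+ replicate 4, at 80.1 CPM, against the other Del/+ libraries, so these values rest on a single library.

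Coro6 (ENSRNOG00000014496), a coronin best known from skeletal muscle, where it helps to cluster acetylcholine receptors, had the fewest reads, 67 to 305 per library, and the largest spread. It gave 4.12, 3.99, 2.71, 6.30, 5.80 and 3.30 CPM in wt, and 4.50, 10.9, 4.42 and 8.20 CPM in Del/+. The Dup/+ libraries gave 2.77, 3.18, 5.26, 3.08 and 4.98 CPM, and the Del/Dup libraries 10.9, 3.98, 8.22 and 5.17 CPM. In each of Del/+ and Del/Dup, 2 of the 4 libraries were above every wt library and the other 2 were inside the wt range. The log2 differences from wt were 0.66 in Del/+ (interval 0.05 to 1.28, adjusted p = 0.239), -0.20 in Dup/+ (interval -0.82 to 0.42, adjusted p = 0.892) and 0.69 in Del/Dup (interval 0.06 to 1.32, adjusted p = 0.269). A single library carried much of each: the Coro6 difference was 0.39 in Del/+ without Del/+ replicate 2 and 0.41 in Del/Dup without Del/Dup replicate 2. Dup/+ was lower than Del/+ by a log2 difference of -0.87 (adjusted p = 0.231) and lower than Del/Dup by -0.89 (adjusted p = 0.240), and neither passed the test.

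**Figure D3:**
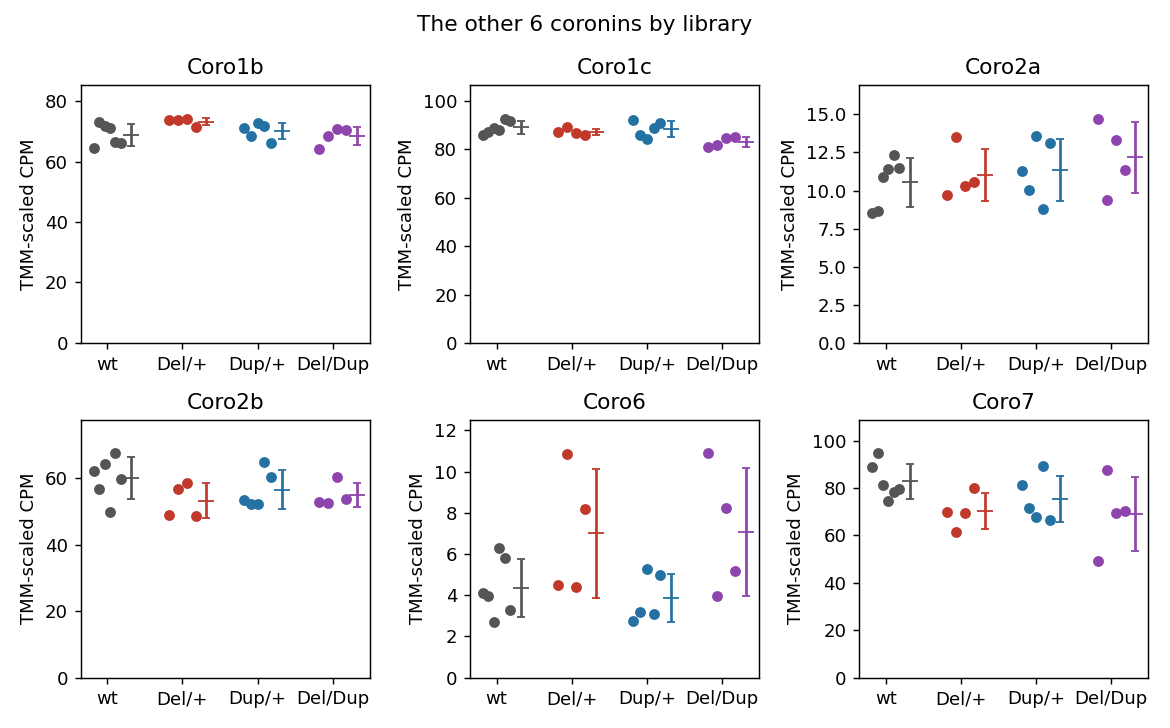
Levels of the other 6 coronins (TMM-scaled CPM, each axis from 0) in every library, with horizontal marks and bars for the group mean and SD. Coro1b and Coro1c stay within 64.2 to 74.2 and 81.1 to 92.7 CPM over all 19 libraries, whereas Coro6 spreads from 2.71 to 10.9 CPM.

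The spread set what could be seen for each gene. The coefficient of variation pooled within genotypes was 2.79% for Coro1c, 4.03% for Coro1b, 9.37% for Coro2b, 9.57% for Coro1a, 14.8% for Coro7, 17.0% for Coro2a and 38.4% for Coro6. Between the highest and the lowest of the 19 libraries, Coro1c differed 1.14-fold, Coro1b 1.16-fold and Coro6 4.03-fold.

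Summed over the other 6 coronins, reads came to 316 ± 8.57 CPM in wt, 302 ± 5.55 in Del/+, 306 ± 14.2 in Dup/+ and 295 ± 15.2 in Del/Dup (SD; n = 6, 4, 5 and 4). In Del/+ the sum was on average below wt. Coro1a took 24.9% of the reads of the 7 genes in wt, 14.5% in Del/+, 33.9% in Dup/+ and 24.8% in Del/Dup. These sums are weighted by gene length and abundance, and are given without a test.

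Within genotypes, some coronins varied together from library to library. The log2 level of each gene was taken as its deviation from the mean of its group, and all 21 pairs of coronins were correlated over the 19 libraries with permutation tests. Coro2a and Coro7 ran in opposite directions (Pearson r = -0.81, adjusted p = 0.00525; Spearman rho = -0.81, adjusted p = 0.00840), and r was -0.72 without the 2 libraries farthest from the median of Coro2a, Del/Dup replicate 3 and Dup/+ replicate 4. Coro2a and Coro6 ran together (r = 0.70, adjusted p = 0.0321; rho = 0.69, adjusted p = 0.0342; r = 0.65 without the same 2 libraries). Coro6 and Coro7 gave r = -0.62 (adjusted p = 0.0870; rho = -0.63, adjusted p = 0.0549), which did not pass the test. Coro1a and Coro1b gave r = 0.47 (adjusted p = 0.0870) and rho = 0.59 (adjusted p = 0.0342), past the threshold by rank only. For Coro1a with Coro1c r was -0.15 (adjusted p = 0.770; rho = -0.17, adjusted p = 0.782). Coro1a gave r = -0.61 with Coro6 (adjusted p = 0.0978), 0.57 with Coro7 (adjusted p = 0.143) and -0.53 with Coro2a (adjusted p = 0.0978), and none passed by r or by rho. Without Del/+ replicate 2 and Del/Dup replicate 2, the 2 farthest from the median of Coro1a, these r were -0.38, 0.24 and -0.31. The adjustment is over the 21 pairs.

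Several libraries marked the ends of these relations. Del/Dup replicate 2 had Coro6 at 10.9 CPM, Coro2a at 14.7 and Coro7 at 49.3, the highest, highest and lowest of all libraries, and Del/Dup replicate 3 had Coro6 at 3.98 CPM, Coro2a at 9.37 and Coro7 at 87.5. Dup/+ replicate 4 had Coro2a at 8.78 CPM and Coro7 at 89.4, the latter the highest of the Dup/+ libraries. Libraries of the Del/+ genotype alone covered 4.42 to 10.9 CPM of Coro6, whereas the means of the 4 genotypes covered 3.85 to 7.06 CPM.

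Some markers of neurons moved with the same 3 coronins. This comparison was added after the data had been seen, with the 10 neuronal marker genes that were tested set against the 7 coronins, 70 relations in all. By r 11 of the 70 passed, 5 with Coro2a, 3 with Coro6 and 3 with Coro7, and by rho 12, of which 10 passed by both. None passed with the other 4 coronins, and none with Snap25, Wfs1, Calb1, Gad1 or Gad2, for which r ran from -0.52 to 0.56. Camk2a, a kinase of excitatory neurons, ran with Coro7 (r = 0.78, adjusted p = 0.00280; rho = 0.82, adjusted p = 0.00210) and ran opposite to Coro2a (r = -0.84, adjusted p = 0.00227; rho = -0.86, adjusted p = 0.00210) and Coro6 (r = -0.84, adjusted p = 0.00187; rho = -0.79, adjusted p = 0.00448). Without the 2 libraries farthest from the median of Camk2a these r were 0.82, -0.87 and -0.83. Prox1, which marks granule cells of the dentate gyrus, gave r = -0.79 with Coro2a (adjusted p = 0.00187; rho = -0.85, adjusted p = 0.00315; r = -0.79 without its 2 farthest libraries) and r = 0.83 with Coro7 (adjusted p = 0.0106; rho = 0.70, adjusted p = 0.0165; r = 0.58 without them). With Coro6 it gave r = -0.68 (adjusted p = 0.0290) and rho = -0.61 (adjusted p = 0.103). Slc17a7, the vesicular glutamate transporter of these neurons, gave r = -0.85 with Coro6 (adjusted p = 0.00280; rho = -0.85, adjusted p = 0.00502; r = -0.80 without its 2 farthest libraries), r = -0.74 with Coro2a (adjusted p = 0.00187; rho = -0.85, adjusted p = 0.00140; r = -0.65 without them) and r = 0.63 with Coro7 (adjusted p = 0.110; rho = 0.64, adjusted p = 0.0369; r = 0.32 without them). With Coro1a, Slc17a7 gave r = 0.72, which did not pass (adjusted p = 0.0841; rho = 0.57, adjusted p = 0.125; r = 0.56 without them).

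**Figure D4:**
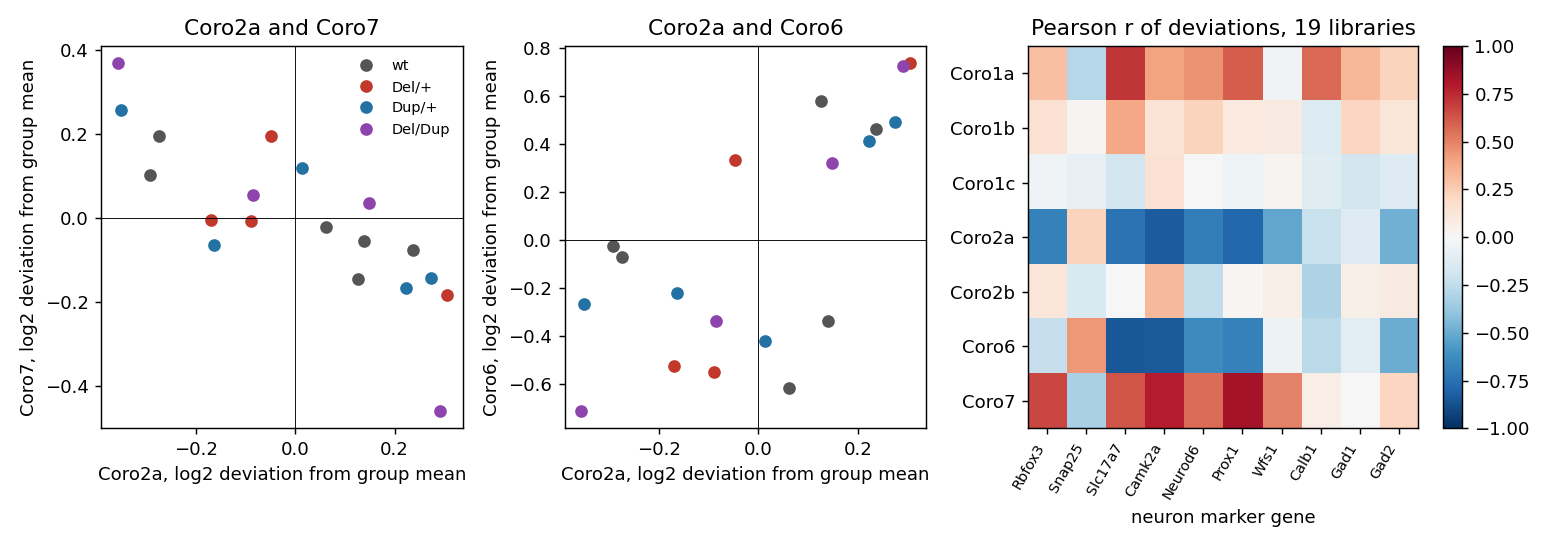
Left and middle, Coro7 and Coro6 against Coro2a, each as the log2 deviation of a library from its genotype mean, with 1 point per library coloured by genotype. Right, Pearson r of the deviations of the 7 coronins with those of 10 neuronal marker genes over 19 libraries, on a colour scale from -1 to 1. Coro2a and Coro6 are negative and Coro7 positive with Camk2a (r = -0.84, -0.84 and 0.78).

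None of the 10 neuronal markers was called between genotypes. Camk2a was 1745 ± 133 CPM in wt, 1436 ± 92.0 in Del/+, 1615 ± 176 in Dup/+ and 1449 ± 150 in Del/Dup (SD; n = 6, 4, 5 and 4), and its log2 difference from wt was -0.28 in Del/+ (adjusted p = 0.0835) and -0.27 in Del/Dup (adjusted p = 0.154). Prox1 was 160 ± 20.9 CPM in wt, 126 ± 15.1 in Del/+, 161 ± 16.6 in Dup/+ and 135 ± 48.2 in Del/Dup, and its log2 difference from wt was -0.35 in Del/+ (adjusted p = 0.257). Slc17a7 had log2 differences from wt of -0.21 in Del/+, -0.13 in Dup/+ and -0.24 in Del/Dup. In Del/+ against wt 7 of the 10 markers had a negative log2 difference, with -0.13 for Rbfox3, -0.10 for Neurod6, -0.06 for Wfs1 and -0.05 for Calb1 beside the 3 named, and 3 a positive one, 0.25 for Snap25 (adjusted p = 0.125), 0.12 for Gad1 and 0.05 for Gad2. The part of these markers in the Coro6 values was not tested.

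The genes whose deviations ran most like those of Coro6 were listed after its values were seen. They were Tshz3 (r = 0.93), a zinc-finger factor of cortical projection neurons, Sstr1 (0.92), a somatostatin receptor, Nap1l5 (0.92), Chrna4 (0.92), a nicotinic receptor subunit, and Bmper (0.92), followed by Donson, Dok5, Cbln2, Isyna1 and Gfra2 each with an r of 0.91. These are descriptions, since all of these genes were read from the same 19 libraries.

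The partners through which coronins act on actin and on signalling were read as 5 lists, 73 genes in all, of which 72 were tested. In each of the 7 comparisons at most 1 of the 72 was called, higher in Del/+ against wt and lower in Dup/+ against Del/+, and in both it was Adcy8. Over all genes 0.771% and 0.784% were called in these comparisons, so that 1 call among 72 is near the background. The Arp2/3 complex, the nucleator that coronins bind, had 0 of 10 subunits called, and its median log2 change was -0.04 in Del/+, -0.02 in Dup/+ and -0.11 in Del/Dup, where the median of all genes tested was 0.00 in each. All 10 subunits were on the low side in Del/Dup, from -0.25 to -0.04, and 4 had an unadjusted p under 0.05, as did 21 of the 72 partners and 16.2% of all genes in that comparison. Actr3, the member with the highest CPM in wt, was at 386 ± 25.7 CPM in wt, 369 ± 20.9 in Del/+, 380 ± 25.2 in Dup/+ and 343 ± 32.1 in Del/Dup.

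The 20 regulators of Arp2/3, among them the WASP and WAVE subunits, had 0 called, with medians of -0.03, -0.01 and -0.06. Cyfip2, a WAVE subunit and the most abundant of them, was at 1753 ± 106 CPM in wt and 1769 ± 75.7 in Del/+. The cofilin cycle, in which filaments are severed and cofilin is switched by phosphorylation, had 0 of 15 called, with medians of -0.04, -0.02 and -0.09. Cfl1, cofilin itself, was at 369 ± 9.75 CPM in wt, 358 ± 32.7 in Del/+, 339 ± 16.2 in Dup/+ and 319 ± 13.2 in Del/Dup, where its log2 difference from wt was -0.21 (adjusted p = 0.10). Rac and calcineurin signalling had 0 of 13 tested members called, with medians of -0.07, -0.04 and -0.06, and its most abundant member Ppp3ca, the catalytic subunit of calcineurin, was at 1508 ± 116 CPM in wt and 1383 ± 81.0 in Del/+.

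In the cAMP list 1 of 14 genes was called. Adcy8, a calcium-stimulated adenylyl cyclase, gave 19.6, 26.2, 21.2, 21.4, 29.8 and 22.0 CPM in wt and 29.6, 38.3, 31.2 and 32.1 CPM in Del/+. Only wt replicate 5, at 29.8 CPM, reached the lowest Del/+ library. The log2 change was 0.49 in Del/+ against wt (adjusted p = 0.0206) and -0.49 in Dup/+ against Del/+ (adjusted p = 0.0302), and Dup/+ ranged from 22.1 to 24.7 CPM. Adcy8 was not called in Del/+ against wt without Del/+ replicate 2 (log2 change 0.41, adjusted p = 0.129), without Del/+ replicate 4 (adjusted p = 0.0590), without wt replicate 1 (0.0533) or wt replicate 3 (0.0622), nor with a term for libraries rich in multi-mapped reads (0.46, adjusted p = 0.226), with the microglial covariate (0.44, adjusted p = 0.0735) or with only the groups compared in the fit (0.49, adjusted p = 0.0524), so that the fold stayed close to its value over all libraries while the p did not. Its adjusted p over all libraries left out ran from 0.00120 to 0.129 in that comparison. In Dup/+ against Del/+ it was not called without Del/+ replicate 2 or 4 or without any of Dup/+ replicates 1 to 4 (adjusted p from 0.0509 to 0.147), nor with the multi-mapped term (log2 change -0.46, adjusted p = 0.275). The multi-mapped term is set by Del/+ replicate 4 against the other Del/+ libraries. In both comparisons the value under it therefore rests on that library. Adcy1, the most abundant cyclase, was at 657 ± 73.5 CPM in wt and 578 ± 75.5 in Del/+, and was not called.

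**Figure D5:**
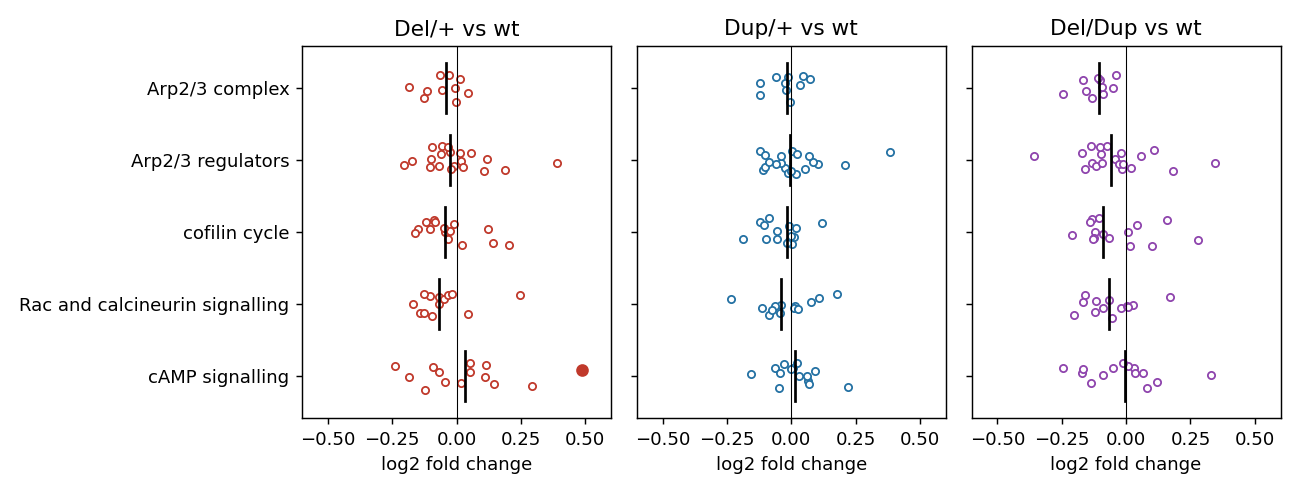
Log2 fold changes of the 72 tested partner genes in each carrier genotype against wt, by list, with a vertical bar at the median of each list. Open points were not called, and the filled point at 0.49 in Del/+ is Adcy8.

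The tissue was read from 12 genes of hippocampal neurons, which summed to 5872 to 7503 CPM, with 0 called in each comparison; Fibcd1 was at 0 in every library and Spink8 at no more than 6 reads. Astrocyte genes also had 0 of 8 called. Coro1a is abundant in leukocytes, so markers of blood and immune cells were read beside it. The summed level of 16 microglial genes was 490 to 517 CPM in the wt libraries, 413 to 514 in the Del/+ libraries, 457 to 537 in the Dup/+ libraries and 464 to 524 in the Del/Dup libraries, with 0 of 16 called in each comparison. The 10 T and NK cell genes summed to 6.84 to 13.9 CPM, with 1 at 0 in every library, and 7 genes of B cells and neutrophils to at most 0.836 CPM. Red cell genes were higher in Dup/+, with 2 of 5 called against wt, where 0.272% of all genes were called, and sums from 138 to 184 CPM against 87.1 to 123 in wt. Choroid plexus genes summed to 4.21 to 36.5 CPM in the wt libraries and were far more variable in the carriers, with 7.18 to 1282 CPM (Del/+), 7.93 to 414 CPM (Dup/+) and 43.0 to 1229 CPM (Del/Dup), and 0 of 7 were called. Oligodendrocyte genes had a median log2 change of 0.29 in Del/+ against wt, with 0 of 10 called. The part of the red cell, choroid plexus and oligodendrocyte genes in the coronin values was not tested.

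The share of multi-mapped reads differed between the groups. It was 40.1% to 47.6% in wt and 45.1% to 50.5% in Dup/+, but 57.8% to 70.7% in Del/Dup, and in Del/+ it was 41.6% in replicate 4 and 63.9% to 76.3% in the other 3. Only 1 Del/+ library, replicate 4, had a low share, and its log2 difference in Coro1a from wt among the libraries of low share was -1.04; this value rests on a single Del/+ library, so no test of the genotype is drawn from it. This split was chosen after the data had been seen. In the fits with a mean per group, the term for a share over 55% was likewise set by that library against the other 3 Del/+ libraries. Within libraries of high share Del/Dup exceeded Del/+ by 0.93 (adjusted p = 0.0190). For Del/Dup against wt and Dup/+ no library of the other share exists, and genotype and share cannot be told apart. No coronin's deviations passed the test against the share over the 19 libraries (7 relations, r from -0.14 to 0.27, smallest adjusted p = 0.542 for r and 0.795 for rho). For Coro1a r was 0.03 over all libraries and 0.52 without the 2 libraries farthest from the median of the share (as a deviation from the group mean), so its value over all libraries rests on those 2.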

How the data were processed

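Per the labels and the methods of the study, the authors sequenced stranded total RNA libraries as 50-base single-end reads on an Illumina HiSeq, aligned these to Rno6 with HISAT2, and used HTSeq-count to assign reads to Ensembl genes. The submitters' processing notes also name bcl2fastq 2.17.1.14, R 3.6 and DESeq2. Whether polyA RNA or rRNA-depleted RNA was used is stated differently in the labels' fields and was not settled. The deposited values are raw counts, 1 file per library, with 5 summary lines that were kept out of library sizes and tests; multi-mapped reads are not in the gene counts and took 40.1% to 76.3% of counted lines.

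Of 24345 genes with a read, 15440 passed filterByExpr. Libraries were scaled by TMM and fitted with edgeR 4.0.16 (R 4.3.3, quasi-likelihood, a mean per group, no covariate; slope on copies in a separate fit), with Benjamini-Hochberg adjustment over all genes tested. Intervals were derived from the F statistic. DESeq2 1.42.0, other scalings, no filter, added covariates, the other reading of wt replicate 5 and leaving out each library were alternatives. Single values used two-sided exact permutation tests, and correlations 100000 permutations. The fit was tested on simulated data. Members, gene lists and tests were chosen with earlier results of these data known. The text names all 7 coronins, from each partner list the called members and the most abundant in wt, the 5 genes most like Coro1a by level and by deviation, and 2 interval neighbours on each side; the relatives of Coro6 and the neuronal marker relations were added later. Promoters are RefSeq, GRCr8, and all 7 symbols matched. Depth limits Coro6 and Coro2a most. The p-values of the group comparisons weigh a difference against the spread between libraries.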

Additional observations from a re-analysis of the deposited data

Results flagged for a closer look

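Coro2b in Del/Dup replicate 4 was at 60.2 CPM, while the nearest of the other 3 Del/Dup libraries was at 53.8 CPM. The gap took 0.831 of the range of the group, past Dixon's critical value for 4 samples. It was the only 1 of 28 groups of coronin values to stand out in this way, and chance alone flags about 1 in 20 groups. Its level lay inside the wt range.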

How the results depend on the processing

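The Coro1a log2 fold change kept its direction in every comparison and alternative run, and its call in all but 2: Dup/+ against wt with wt replicate 5 read as Dup/+ (0.48, adjusted p = 0.0914), and Dup/+ against Del/Dup with a term for multi-mapped share over 55% (0.68, adjusted p = 0.148). The interval genes of wt replicate 5 stood at the wt level, which bears on every value given with it read as Dup/+. Without 1 library at a time, Coro1a ranged from -1.12 to -0.96 in Del/+ against wt, 0.56 to 0.60 in Dup/+ against wt, -0.15 to -0.03 in Del/Dup against wt, 1.53 to 1.70 in Dup/+ against Del/+, 0.86 to 1.02 in Del/Dup against Del/+, 0.60 to 0.73 in Dup/+ against Del/Dup and 0.74 to 0.81 per copy. The count of other coronins called was 0 under every other scaling, filter, covariate, grouping and left-out library and in the high-share libraries alone, a fit chosen after seeing the data; DESeq2 gave no adjusted p for Coro6 in Del/+ against wt. The fit of low-share libraries had 1 Del/+ library and is not counted here. The smallest adjusted p among them was 0.0682, for Coro7 in Del/Dup against wt without Del/Dup replicate 3.

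The Coro1a level per copy differed from wt, without 1 library at a time, by -4.37 to 1.59 CPM (Del/+), -0.73 to 0.49 CPM (Dup/+) and -5.29 to -0.97 CPM (Del/Dup). In Dup/+, where it was -0.23 CPM, it was -3.55 CPM with wt replicate 5 read as Dup/+ and 1.18 CPM as a difference of medians, a measure chosen after seeing the data. No pairing by replicate number was seen: over 24 pairs of libraries with the same number in different groups, the deviations of all genes correlated between -0.17 and 0.12. Weaker ties between such libraries were not tested. With a replicate block Coro1a was -1.06 in Del/+ against wt (adjusted p = 2.27e-06), 0.57 in Dup/+ against wt and -0.10 in Del/Dup against wt, and no coronin call changed. Counts over all genes moved more than the members did: in Del/Dup against wt 14 genes were called, 179 by DESeq2, 216 when replicate 3 of Del/Dup and 2 when replicate 4 of Del/Dup was left out, and in Del/+ against wt 119 genes, 641 by DESeq2, 48 with the microglial covariate, 46 without Del/+ replicate 2 and 337 without Del/Dup replicate 2. With 1 library left out, called genes ran from 27 (without Dup/+ replicate 1) to 44 in Dup/+ against wt, 60 to 194 in Dup/+ against Del/+ and 48 to 124 per copy (both lowest without Del/+ replicate 2 and highest without Del/Dup replicate 2), and 23 to 79 in Dup/+ against Del/Dup (without Del/Dup replicates 4 and 3). Coro6 at 67 to 305 reads and Coro2a at 179 to 401 reads had the least depth.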
